A study of Mus musculus with 11 samples.

Results

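*Tardbp* and 6 other genes for RNA-binding proteins (*Taf15*, *Ewsr1*, *Tia1*, *Matr3*, *Hnrnpa1* and *Hnrnpa2b1*) were followed in single mouse embryos with and without *Prdm10*. They were taken by symbol from the 54146 genes of each embryo's table, so the set holds 7 genes. The set was chosen with measured values of mutants and controls in view, and holds *Tardbp* with genes whose proteins are of the same or neighbouring families. The difference between mutants and controls is therefore given for these genes as a description and supports nothing further.

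*Tardbp* encodes TDP-43, a mostly nuclear protein that binds GU-rich stretches of RNA, represses the use of cryptic exons and lowers the level of its own mRNA. *Taf15* and *Ewsr1* belong to the FET family, whose proteins bind RNA and DNA and join transcription to splicing. *Hnrnpa1*, *Hnrnpa2b1* and *Matr3* encode abundant nuclear proteins of the splicing apparatus, and TIA1 gathers untranslated mRNA in stress granules. Mutations in the human forms of several of these genes cause amyotrophic lateral sclerosis or related disorders, and loss of TDP-43 is lethal to mouse embryos around implantation.

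The embryos were C57BL/6, at the 8-cell stage on embryonic day 2.5, and came from naturally mated *Prdm10* Δ/+ intercrosses, so the mothers of both groups were heterozygous. The 5 mutants (*Prdm10* KO, Δ/Δ) lacked exon 5 on both alleles, and the 6 controls (*Prdm10* WT/HET) mixed wild-type and heterozygous embryos that the labels do not separate. Embryos were sorted by detection of exon 5 in the same cDNA that was sequenced. Libraries were made from 1 embryo each with a Smart-seq2 protocol, which copies RNA from its poly(A) end. Batch 1, with 16 cycles of PCR pre-amplification, held 3 controls (replicates 4, 5 and 6) and 2 mutants (replicates 4 and 5). Batch 2, with 13 cycles, held 3 controls and 3 mutants (replicates 1, 2 and 3 of each).

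Summed expected counts ran from 3534735 to 7195942 in controls and from 5402858 to 8265840 in mutants. Mitochondrial genes took 6.27% to 10.2% of the counts in controls and 6.23% to 7.30% in mutants. The TPM of *Prdm10* itself was 11.1 to 24.8 in controls and 4.88 to 8.16 in mutants, without overlap. Its normalised counts overlapped, at 124 to 381 in controls and 104 to 202 in mutants, and its mean effective length, by which TPM divides, was 3011 bases in controls and 4746 in mutants. Markers of the early embryo summed to between 6130 and 8100 TPM over all 11 embryos, led by *Dppa3*. Of the 6 of them that could be tested between mutants and controls DESeq2 called 0, and 4 (66.7%) were at an unadjusted p under 0.05, against 11.9% of all genes tested. These were *Nanog* at -1.05 ± 0.38 (SE, log2) and *Pou5f1* at 0.90 ± 0.31, both pluripotency factors, *Dppa5a* at 0.45 ± 0.16 and *Tfap2c* at 0.38 ± 0.16, with DESeq2 adjusted p from 0.123 to 0.264. The TPM of *Dppa5a* was 1422 to 2207 in controls and 2217 to 2519 in mutants, without overlap. The share of all genes with every mutant above every control in TPM was not counted. The part of these early embryo markers in the differences between groups was not tested. Of 8 cumulus and granulosa markers, 3 were at 0 in every embryo, and their sum was at most 0.47 TPM in controls and 14.9 TPM in mutants. The 14.9 TPM was reached in a mutant of batch 2, mainly through *Inha* (7.83 TPM), *Fst* (3.98) and *Inhba* (3.08), whose medians in mutants were 0. The 6 oviduct markers summed to 36.9 to 74.3 TPM in controls and 32.5 to 55.4 TPM in mutants. *Epcam*, which the embryo also expresses, made up most of this except in mutant replicate 3, where it was at 22.1 TPM and *Ovgp1*, a secreted oviduct glycoprotein, at 30.1 TPM. Over all embryos *Ovgp1* ranged from 0 to 30.1 TPM. The part of such RNA in the values given here was not tested.

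Among the 7 genes, 3 (*Tardbp*, *Taf15* and *Ewsr1*) are on the study's list of genes bound by PRDM10 in mouse embryonic stem cells. Of the 10448 genes that could be tested in embryos, 3.03% are on that list. The study's gel-shift probe for PRDM10 and its altered form are shown because they give a sequence to look for at these genes. Capitals mark bases 10 to 20, between the first and the last base that was altered.

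probe: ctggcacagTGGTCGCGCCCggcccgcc
altered probe: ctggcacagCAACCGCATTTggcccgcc

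The 11 capital letters of the probe, TGGTCGCGCCC, were searched on both strands of 300-base promoter windows from RefSeq (GRCm38.p6), which run from 250 bases before to 50 after the start site. A promoter entry was found for 6 of the 7 genes, and 1 entry per gene, the best match, was counted over 27018 genes. In the lines below, capitals mark the best match at each of the bound genes, written along the gene's strand.

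*Tardbp*: tttccctccTAGCCCCGCCCctgccgcc
*Taf15*: tcggcgcagTGGTATCGCCTgccgcgcg
*Ewsr1*: ctggcccgaTGGTAGCGTCCgaggttgc

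Positions of the changes are counted from 1 at the 5′ end of the 11 letters, with the probe's base first. At *Ewsr1* the match differed at 2 positions (C5A and C9T), 28 bases before the start site, in a stretch at chr11:5099106-5099133 (minus strand) that lies within the annotated gene. At *Taf15* it differed at 3 (C5A, G6T and C11T), 68 bases before the start site, at chr11:83473031-83473058 (plus strand). At *Tardbp* it also differed at 3 (G2A, T4C and G6C), 125 bases before the start site, at chr4:148627103-148627130 (minus strand). The best match differed at 3 positions for *Hnrnpa2b1* and at 4 for *Tia1* and *Hnrnpa1*.

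A match with at most 2 differences was present in 11.8% of all promoters, and one with at most 3, as at *Tardbp* and *Taf15*, in 50.1%. Among the 423 genes of the bound list with a promoter entry, 30.5% had a match with at most 2 differences, against 11.5% of other genes. A match describes letters in a window and is not a site of binding, and sequence further into the genes was not searched.

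The promoters of *Tardbp* and *Taf15* are shown up to the annotated start of each gene, since these genes had the lowest fitted values in mutants. The first covers chr4:148627020-148627246 (minus strand) and the second chr11:83472858-83473085 (plus strand), and capitals again mark the match.

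*Tardbp* promoter: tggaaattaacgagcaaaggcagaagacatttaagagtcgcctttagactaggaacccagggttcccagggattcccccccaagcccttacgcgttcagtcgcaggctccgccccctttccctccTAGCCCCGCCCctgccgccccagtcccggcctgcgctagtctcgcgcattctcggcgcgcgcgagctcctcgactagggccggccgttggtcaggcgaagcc
*Taf15* promoter: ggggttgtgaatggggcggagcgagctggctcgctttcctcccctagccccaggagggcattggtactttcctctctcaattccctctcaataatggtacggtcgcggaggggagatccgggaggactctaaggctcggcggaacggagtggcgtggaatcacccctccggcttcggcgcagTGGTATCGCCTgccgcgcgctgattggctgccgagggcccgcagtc

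*Tardbp* (ENSMUSG00000041459.15) lies on chromosome 4 from 148612382 to 148627019 (GRCm38, minus strand). In batch 2 its TPM, a transcript share that corrects for depth and gene length, was 438, 341 and 426 in the controls and 222, 185 and 231 in the mutants. In batch 1 it was 498, 604 and 263 in the controls and 176 and 153 in the mutants. All 5 mutants were below all 6 controls, and the nearest pair was control replicate 6 and mutant replicate 3. The same separation in TPM was found for 0.574% of the genes tested.

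Normalised read counts, which correct for depth alone, gave 2348, 2200 and 2497 in the controls of batch 2 and 1298, 1152 and 1336 in its mutants. In batch 1 they were 1982, 2309 and 1300 in the controls and 747 and 835 in the mutants. Within each batch every mutant was below every control, which held for 1.41% of the genes tested. Across batches, control replicate 6 of batch 1 was among the mutants of batch 2. The mutant mean was 0.424 times the control mean in batch 1 and 0.537 times in batch 2.

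In the fit over both batches *Tardbp* was lower in mutants by 1.05 ± 0.17 (SE) on the log2 scale, a 2.06-fold difference (DESeq2 adjusted p = 4.55e-07, edgeR adjusted p = 0.0079). DESeq2 called 151 of 10448 genes (1.45%), of which 92 (0.881%) were lower, and edgeR called 32 of 10469 (0.306%). *Tardbp* was chosen by this contrast, so its call is not a result. In each library *Tardbp* rested on 729 to 2834 expected counts. Under 22 alternatives its log2 difference ran from -1.23 to -0.90, and it was -1.11 without control replicate 6. Each value is a share of 1 whole embryo's RNA, in which less *Tardbp* RNA in every cell and fewer cells that hold it cannot be told apart.

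**Figure D1:**
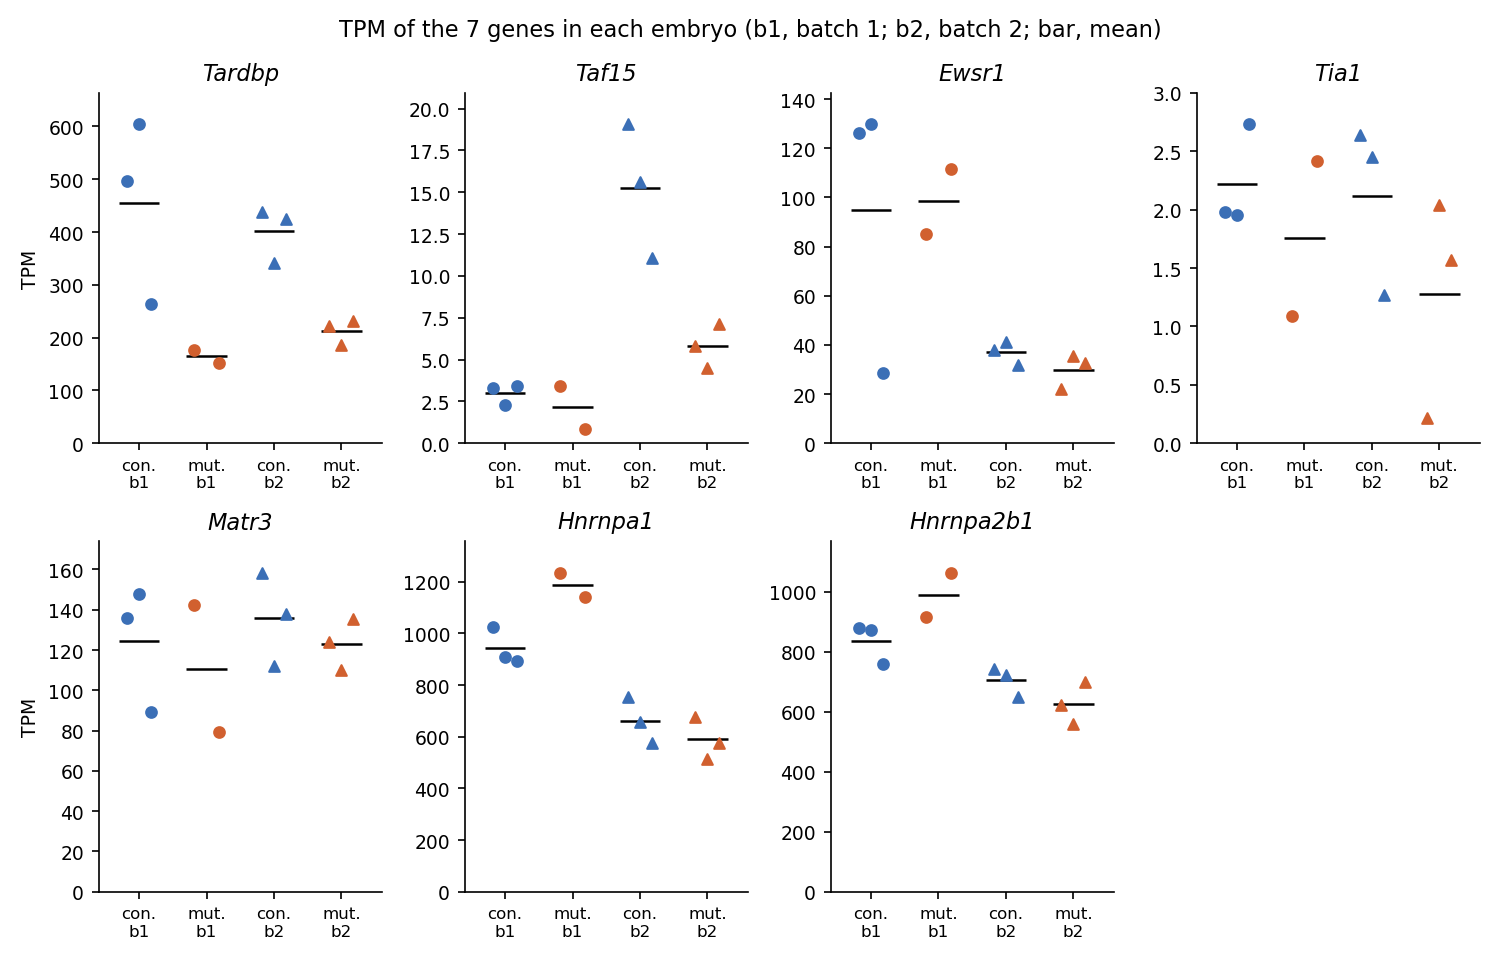
TPM (vertical axis, from 0) of each of the 7 genes in controls (con., blue) and mutants (mut., orange) of batch 1 (b1, circles) and batch 2 (b2, triangles), with 1 point per embryo and a bar at the mean. For *Tardbp* the 5 mutants sit between 153 and 231 TPM and the 6 controls between 263 and 604, while *Taf15* and *Ewsr1* differ mostly between batches.

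*Taf15* (ENSMUSG00000020680.15; chromosome 11 from 83473086 to 83506743, plus strand) encodes a FET protein found with the TFIID complex. Its TPM in batch 2 was 19.1, 15.6 and 11.1 in controls and 5.79, 4.50 and 7.10 in mutants, so that all 3 mutants were below all 3 controls. In batch 1 it was 3.33, 2.31 and 3.43 in controls and 3.43 and 0.87 in mutants, which overlapped. The share of all genes that separate within batch 2 alone was not counted, so nothing is read from the separation there. The libraries of batch 1 held only 5 to 15 expected counts of *Taf15* each, and counts of this size leave a wide error. Over both batches the fitted difference was -0.96 ± 0.43 (SE; DESeq2 adjusted p = 0.335). Its size was near that of *Tardbp* and its SE was larger.

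*Ewsr1* (ENSMUSG00000009079.16; chromosome 11 from 5069689 to 5099266, minus strand) had a TPM of 37.9, 41.1 and 31.9 in the controls of batch 2 and 22, 35.3 and 32.6 in its mutants. In batch 1 it was 126, 130 and 28.8 in the controls and 85.3 and 112 in the mutants. Control replicate 6 stood far below the other 2 controls of its batch and beside the embryos of batch 2. The fitted difference between mutants and controls was -0.22 ± 0.31 (SE; DESeq2 adjusted p = 0.868), and -0.43 without control replicate 6 (DESeq2 adjusted p = 0.345).

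*Tia1* (ENSMUSG00000071337.11; chromosome 6 from 86404219 to 86433405, plus strand) was the least abundant of the 7 genes. Its TPM was 2.64, 2.45 and 1.27 in controls and 0.22, 2.04 and 1.57 in mutants of batch 2. In batch 1 it was 1.98, 1.95 and 2.73 in controls and 1.09 and 2.42 in mutants, and the groups overlapped in both batches. It rested on 2 to 37.2 expected counts per library. The fitted difference was -0.42 ± 0.63 (SE; DESeq2 adjusted p = 0.885), and it ran from -0.84 to -0.12 with single embryos left out. A large change in either direction would be undetectable at this depth. *Tial1*, its closest paralog, had a mean normalised count of 276 and a fitted difference of -0.11 ± 0.26 (SE; DESeq2 adjusted p = 0.934).

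*Matr3* (ENSMUSG00000037236.14), for the nuclear matrix protein matrin 3, gave 158, 112 and 138 TPM in controls and 124, 110 and 135 in mutants of batch 2. In batch 1 it gave 136, 148 and 89.1 TPM in controls and 142 and 79.2 in mutants. The lowest control and the lowest mutant were both in batch 1, and the groups overlapped. The fitted difference was -0.22 ± 0.15 (SE; DESeq2 adjusted p = 0.626).

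*Hnrnpa1* (ENSMUSG00000046434.16; chromosome 15 from 103240432 to 103246692, plus strand) gave 753, 655 and 575 TPM in controls and 676, 515 and 577 in mutants of batch 2. In batch 1 it gave 1026, 910 and 891 TPM in controls and 1234 and 1139 in mutants. Mutants were thus above all controls in batch 1 and within or below their range in batch 2. *Hnrnpa2b1* (ENSMUSG00000004980.16; chromosome 6 from 51460932 to 51469894, minus strand) gave 742, 723 and 650 TPM in controls and 621, 558 and 699 in mutants of batch 2, and 878, 871 and 758 TPM in controls and 915 and 1062 in mutants of batch 1. Its normalised counts were below every control of the batch in all 3 mutants of batch 2 and above every control in both mutants of batch 1. The share of all genes separated within a batch in these ways was not counted, and nothing is read from these separations.

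Over both batches the fitted difference was 0.05 ± 0.14 (SE) for *Hnrnpa1* and 0.02 ± 0.13 (SE) for *Hnrnpa2b1*, with DESeq2 adjusted p of 0.952 and 0.987. The signs of both turned with the alternatives, and values of this size carry no direction. All 7 genes passed the filter on low counts, 5 had a fitted value below 0 (71.4%, against 50.2% of all genes tested), and 1 was called, against 1.45% of all genes. These counts come from the contrast that chose the genes and nothing is read from them.

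An interaction term gave how far the difference between mutants and controls itself differed between batches. It is made from the same values of mutants and controls with which the genes were chosen, so for these genes it is a description with no test. The term was 0.34 ± 0.34 (SE) for *Tardbp* (batch 2 minus batch 1, log2) and below 0 for the other 6 genes. It was -0.88 ± 0.91 for *Taf15* and -0.60 ± 0.61 for *Ewsr1*, -0.51 ± 0.25 for *Hnrnpa1* and -0.44 ± 0.24 for *Hnrnpa2b1*, and -0.12 ± 0.33 for *Matr3* and -0.11 ± 1.35 for *Tia1*. Over all genes, DESeq2 called 4 of 10472 (0.0382%) for this term and none of these, with 450 genes at an unadjusted p under 0.05, of the 7 only *Hnrnpa1* among them, and edgeR called 0 genes.

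**Figure D2:**
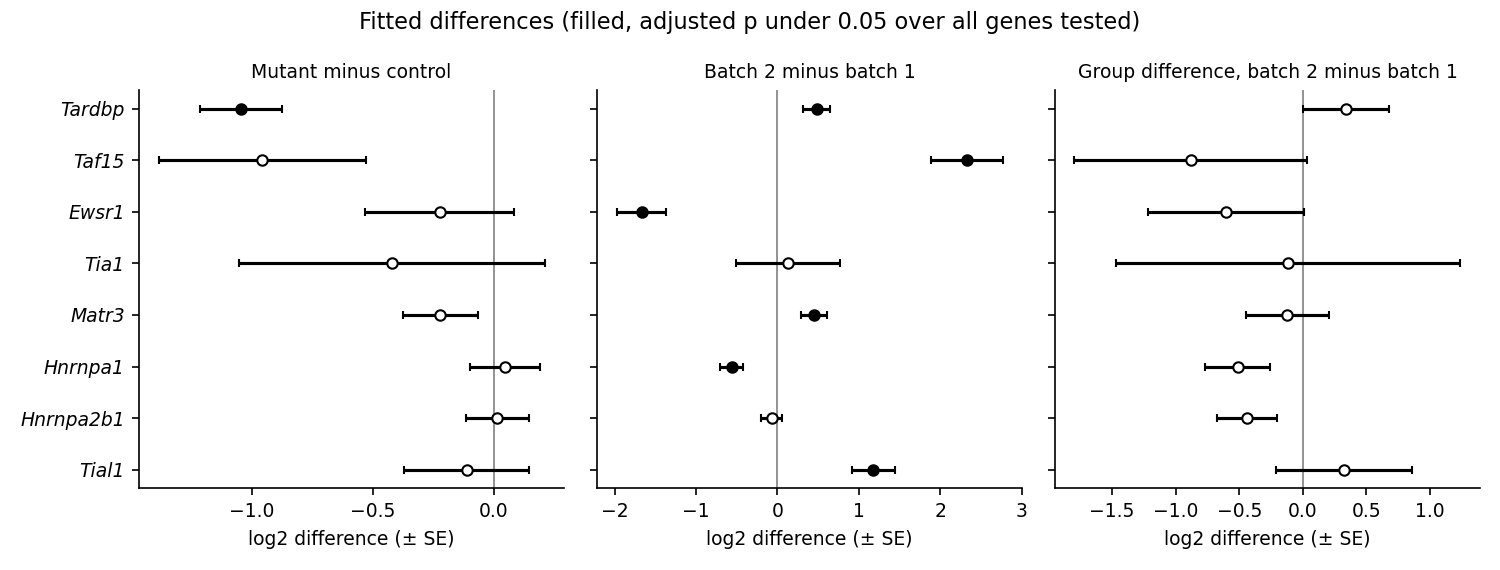
Fitted log2 differences (points, with SE as bars) for the 7 genes and *Tial1*: mutant minus control (left), batch 2 minus batch 1 (middle) and the group difference in batch 2 minus that in batch 1 (right), each with its own scale. Filled points passed an adjusted p of 0.05 over all genes: *Tardbp* at -1.05 on the left, 6 genes from -1.67 to 2.33 in the middle, and none on the right.

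More of these genes were called between batches than between groups. Batch 2 against batch 1, with group as a term, was called by DESeq2 for 5 of the 7 genes, and for 2911 of the 10448 genes tested (27.9%). It was also called for 30 of the 55 related genes described further on (54.5%) and for 4 of the 6 early embryo markers (1 higher and 3 lower in batch 2). *Taf15* was higher in batch 2 by 2.33 ± 0.44 (SE) on the log2 scale, a 5.01-fold difference (DESeq2 adjusted p = 3.89e-06). It passed the filter on a mean count above 10 only through batch 2, with a mean of 49.1 normalised counts there and 9.68 in batch 1, so its call and its part in the count of 5 are a description. *Ewsr1* went the other way, at -1.67 ± 0.31 (SE; DESeq2 adjusted p = 1.97e-06), and at -1.91 without control replicate 6. The fitted values of *Taf15* and *Ewsr1*, of 1 family, had opposite signs.

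*Hnrnpa1* was lower in batch 2, at -0.56 ± 0.14 (SE; DESeq2 adjusted p = 0.00108), while *Hnrnpa2b1* was at -0.07 ± 0.13 (SE; DESeq2 adjusted p = 0.766). On log2(TPM + 1), limma gave *Hnrnpa2b1* a difference of -0.43 with an adjusted p of 0.0188. *Tardbp* was higher in batch 2 by 0.48 ± 0.17 and *Matr3* by 0.45 ± 0.15 (SE; DESeq2 adjusted p = 0.0219 and 0.0203). The calls of both were lost with an effective-length offset (0.29 for *Tardbp* and 0.37 for *Matr3*) and on log2(TPM + 1) (0.10 and 0.17). That of *Tardbp* was also lost without control replicate 6 or mutant replicate 3, 4 or 5, where it ran from 0.40 to 0.47, and that of *Matr3* without control replicate 1 or 6 or mutant replicate 5, where it ran from 0.36 to 0.41. *Tial1* was higher in batch 2 by 1.18 ± 0.26 (SE; DESeq2 adjusted p = 0.000103). The oviduct markers moved with batch as well, at 32.5 to 44.9 TPM in batch 1 and 46.9 to 74.3 TPM in batch 2, and the part of these and of the early embryo markers in the differences was not tested. The batches were isolated and processed separately and had different cycle numbers, and these cannot be told apart.

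The levels of the 7 genes were then put in order in controls, by TPM. *Hnrnpa1* was at 802 ± 170 (SD, n = 6) and *Hnrnpa2b1* at 770 ± 88.6, and these neighbours did not differ beyond their spread (1.03-fold, exact sign-flip permutation test, two-sided, p = 0.656, adjusted p = 0.656). *Hnrnpa1* was the higher in 3 of 3 controls of batch 1 and in 1 of 3 of batch 2. *Tardbp* followed at 428 ± 119, below *Hnrnpa2b1* by 1.85-fold, and *Matr3* at 130 ± 25.3, below *Tardbp* by 3.24-fold. *Ewsr1* was at 65.9 ± 48.3, *Taf15* at 9.14 ± 7.17 and *Tia1* at 2.17 ± 0.55 (SD, n = 6 each).

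Each of the 5 steps from *Hnrnpa2b1* down to *Tia1* was in the same direction in 6 of 6 controls (exact sign-flip permutation test, two-sided, p = 0.0312, the smallest that 6 embryos allow, adjusted p = 0.0375 over 6 pairs). The pairs and their direction were taken from the mean TPM of these same 6 controls. The p is therefore a description of how alike the embryos were, and it takes both batches together. The step from *Ewsr1* to *Taf15* was the most variable, with a mean log2 difference of 3.01 ± 2.09 (SD). The order was the same in both batches for these steps, but their size was not. *Ewsr1* was 8.39 to 56.1 times *Taf15* in the controls of batch 1 and 1.99 to 2.88 times in those of batch 2. *Taf15* was 1.18 to 1.68 times *Tia1* in batch 1 and 6.38 to 8.74 times in batch 2. In the batch 1 controls this step rested on 14, 6 and 15 expected counts of *Taf15*, fewer than the 25, 11.1 and 16.7 of *Tia1*. Its direction there came from the effective lengths, at 870, 807 and 769 bases for *Taf15* and 2610, 1773 and 1079 for *Tia1*. *Matr3* was 1.08 to 3.10 times *Ewsr1* in batch 1 and 2.73 to 4.32 times in batch 2. Means over all 6 controls therefore mix levels of *Ewsr1* and *Taf15* that differ by batch, at 94.9 and 3.02 TPM in batch 1 and 37 and 15.3 TPM in batch 2.

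The effective length of a gene in each embryo, the mean length of the transcripts to which RSEM assigned reads less the part a read cannot start in, was read as a sign of which isoforms were counted. For *Ewsr1* it was 2160, 2033, 1931, 2095 and 2097 bases in the embryos of batch 1 and 1681, 1653, 1761, 1546, 1293 and 1605 bases in those of batch 2. The batches did not overlap, and control replicate 6, which was low in *Ewsr1* counts, had the length of its own batch. The difference of the means was -473 bases. The separation was noticed before any test was chosen, so it is a description and no p is given. *Ewsr1* has 13 annotated transcripts, whose coding forms run from 1290 to 2588 bases.

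*Hnrnpa2b1* went the other way. Its effective length was 1314 ± 28.1 bases (SD, n = 5) in batch 1 and 1448 ± 51.9 (SD, n = 6) in batch 2, again without overlap. Lengths of the 2 batches did not overlap for 3.93% of all genes tested, and they overlapped for the other 5 of the 7 genes and for *Tial1*.

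For *Tardbp* the effective length was 883 to 1326 bases in controls and 1002 to 1249 in mutants, which overlapped. The gene has 30 annotated transcripts, the longest protein-coding one of 7477 bases, and the mean assigned length was far below it in every embryo of both groups.

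**Figure D3:**
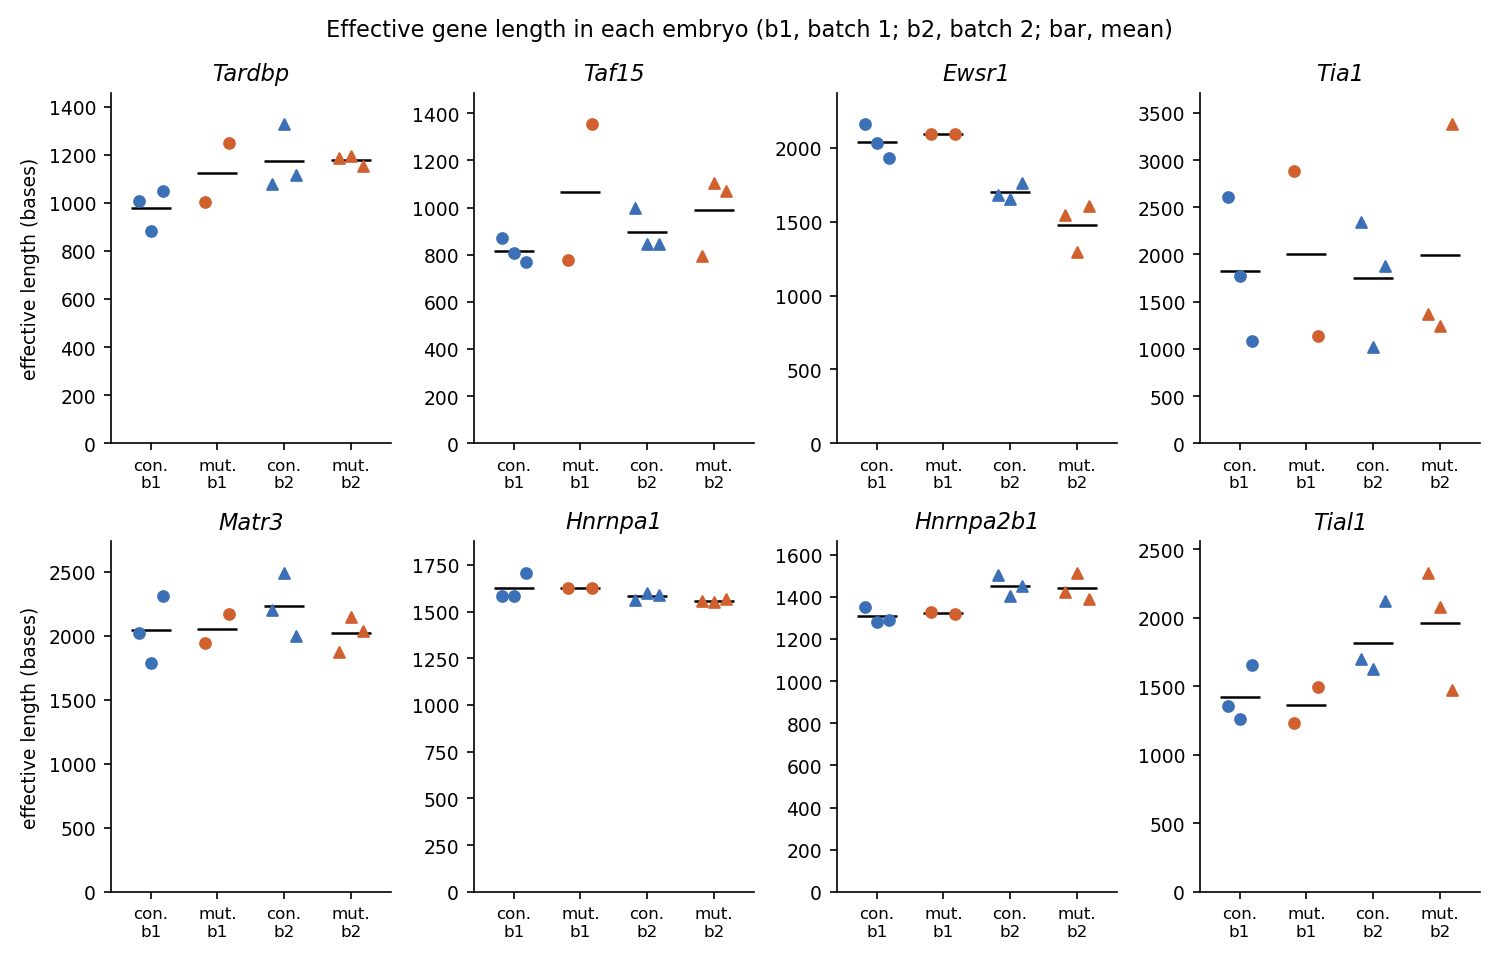
Effective gene length in bases (vertical axis, from 0) for the 7 genes and *Tial1*, with 1 point per embryo, colours and symbols for group and batch as labelled on the horizontal axis, and bars at the mean. *Ewsr1* is longer in all 5 embryos of batch 1 (1931 to 2160 bases) than in any of batch 2 (1293 to 1761), and *Hnrnpa2b1* is shorter.

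Sequence shared with other genes was checked because reads that fit 2 genes are divided by estimate. Other genes with at least 95% identity over at least 200 bases held counts equal to 0.038% of those of *Tardbp*, 0.005% of *Hnrnpa2b1* and 0% of *Taf15*. For *Hnrnpa1* there were 9 such genes, all pseudogenes, with 1.97% of its counts. Most of these were in *Gm10052*, identical to it over 960 bases, with a mean of 120 counts. For *Ewsr1* 4 such genes held 4.47% of its counts, mainly *Rhbdd3*, which overlaps it, and for *Tia1* and *Matr3* the shares were 4.94% and 1.82%. With the copies added to each gene, the difference between mutants and controls of all 7 kept its direction and its side of the threshold.

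*Tardbp* was then compared with every other gene of a mean normalised count above 100 over the 11 embryos, on log2(normalised count + 1). The most similar by Pearson's r were *Cpsf2* (r = 0.94), for a subunit of the mRNA cleavage and polyadenylation factor, *Rnasek* (0.90), *Uqcrh* (0.90), for a subunit of respiratory complex III, *Cd164* (0.89) and *Blzf1* (0.89). All 5 were lower in mutants in the DESeq2 fit, by 0.76 to 2.28 on the log2 scale, where 0.881% of all genes tested were called lower. Of the 5, 4 (all but *Blzf1*) are on the bound list, against 3.03% of the genes tested. *Tardbp* was chosen by the contrast of mutants and controls, so genes like it tend to share that difference, and nothing is read from these counts. The 5 genes were ranked over the same embryos. These genes share with *Tardbp* the embryos, the depth of each library and the group difference, so the values describe likeness and carry no test.

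Control replicate 6 gave 143 normalised counts of *Cpsf2* against 287 and 292 in the other controls of batch 1, as it did for *Tardbp*. With the means of each group and batch removed, r with *Tardbp* was 0.77 for *Cpsf2*, 0.79 for *Rnasek* and 0.62 for *Uqcrh*, and 0.09 for *Cd164* and 0.26 for *Blzf1*. Of the other members, *Matr3* was nearest to *Tardbp* (r = 0.60, place 198 of 5536), *Ewsr1* was at -0.08 and *Hnrnpa1* at -0.44.

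**Figure D4:**
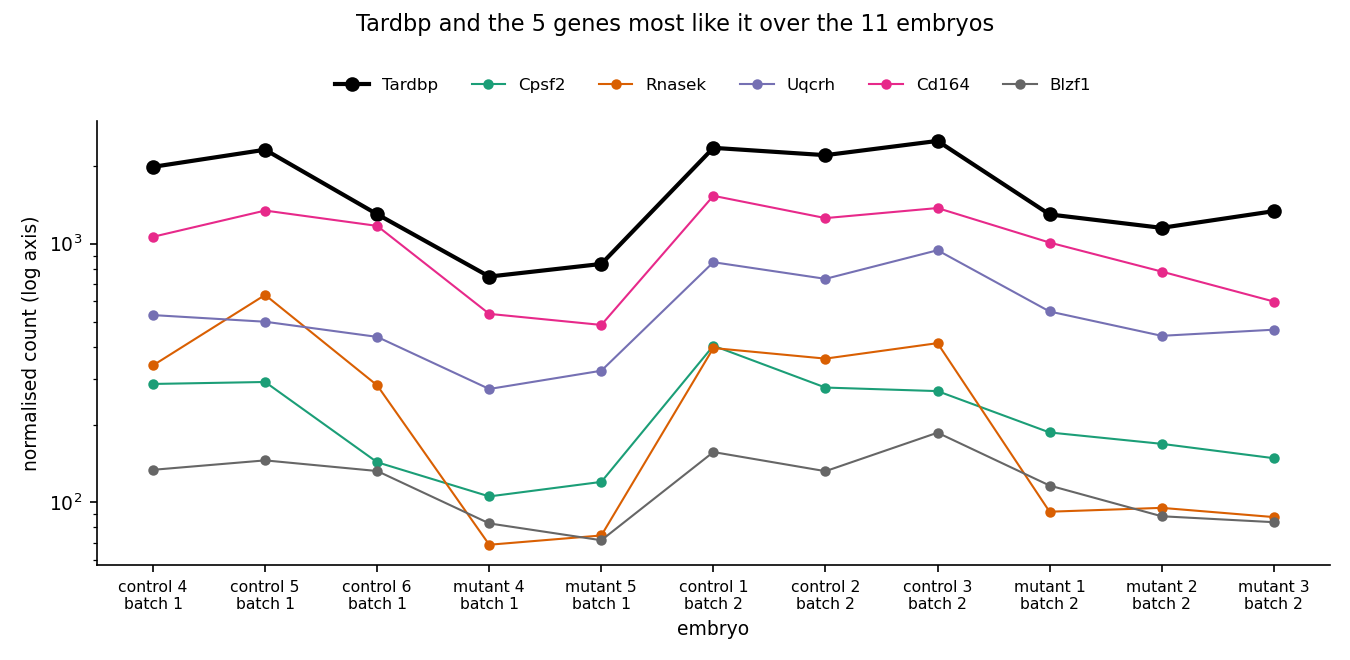
Normalised counts (vertical log axis) of *Tardbp* (black) and the 5 genes most like it in each of the 11 embryos (horizontal axis, batch 1 first). All 6 lines drop from controls to mutants within each batch, and *Tardbp* and *Cpsf2* are also low in control 6, at 1300 and 143 counts.

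Other genes of the same pathways were taken from 5 lists with 58 genes, of which 55 could be tested. DESeq2 called 0 of the 55 between mutants and controls and edgeR called 0. At an unadjusted p under 0.05 in DESeq2 there were 9 (16.4%), against 11.9% of all genes tested. The median log2 difference was 0.08, against 0.00 over all genes, and 38 (69.1%) were above 0, against 49.8%. Without control replicate 2 DESeq2 called 1 of them, *Tnpo1*.

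Among 26 tested hnRNP and related genes the median was 0.06 and 8 were below 0. The largest differences at a mean count above 100 were -0.48 ± 0.20 (SE) for *Hnrnph2* and 0.47 ± 0.21 for *Ptbp1*, a repressor of exons (DESeq2 adjusted p = 0.258 and 0.351). *Raly* and *Hnrnpul1* of this list are on the bound list. *Raly*, at a mean count of 75.4, had the largest difference in size among the 26 tested at -1.18 ± 0.42 (SE; DESeq2 adjusted p = 0.153, edgeR adjusted p = 0.403), with 6.36 to 23.5 TPM in controls and 2.77 to 15.1 in mutants, which overlapped. *Hnrnpul1* was at 0.04 ± 0.38 (SE; DESeq2 adjusted p = 0.988). Among 13 stress granule and mRNP genes the median was 0.15, and the largest differences were 0.87 ± 0.31 for *Fxr2* and -0.47 ± 0.24 for *Fmr1*, both of the fragile X family (DESeq2 adjusted p = 0.144 and 0.448).

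Import receptors carry FET and hnRNP proteins into the nucleus. Their 9 genes had a median of -0.05, and the largest differences were 0.47 ± 0.17 for *Tnpo1*, whose protein transportin 1 imports HNRNPA1, and 0.44 ± 0.22 for *Tnpo2* (DESeq2 adjusted p = 0.153 and 0.408). Of 8 RNAs known to be bound or spliced by TDP-43, 6 could be tested. All 6 had a value above 0, as did 49.8% of all genes tested, with a median of 0.38. DESeq2 called 0 of them and edgeR 0, and 2 (33.3%) were at an unadjusted p under 0.05 in DESeq2, against 11.9% of all genes. The largest at a mean count above 100 were 0.50 ± 0.24 for *Grn*, for progranulin, and 0.25 ± 0.17 for *Bud23* (DESeq2 adjusted p = 0.386 and 0.587). These tables count genes and not exons, so a change of splicing within a gene would not be seen in them.

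**Figure D5:**
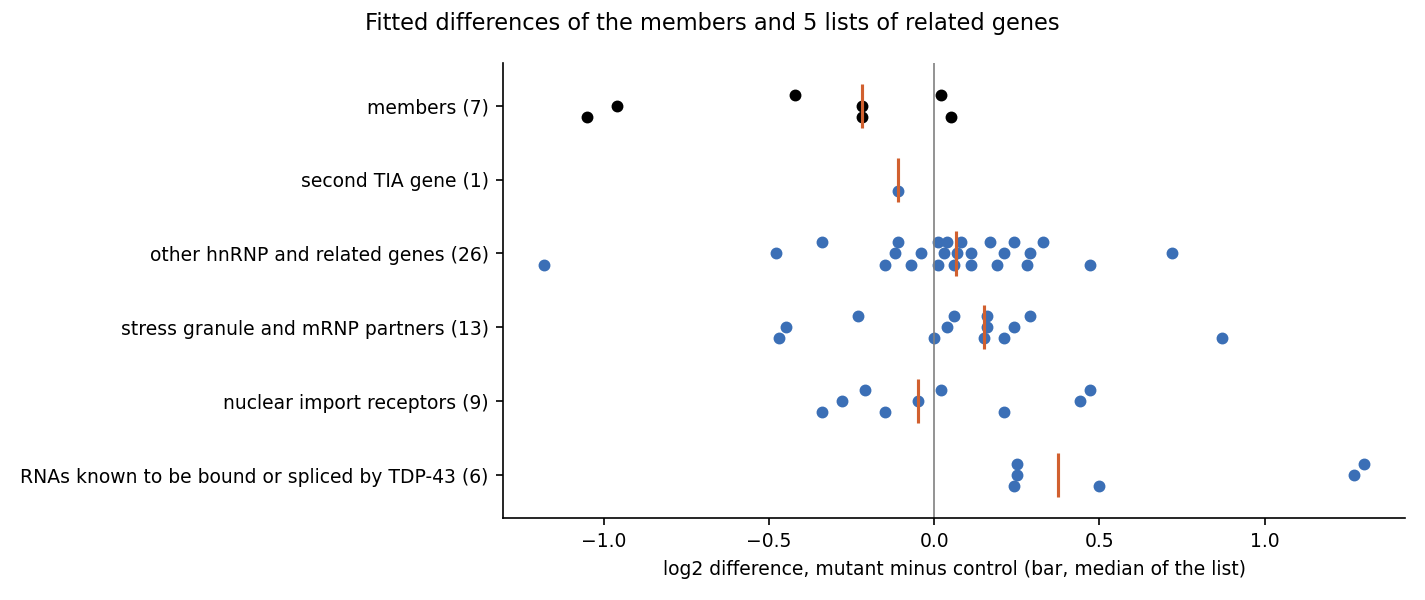
Fitted log2 differences, mutant minus control (horizontal axis), of the 7 members (black) and of the tested genes in 5 lists of related genes (blue), with 1 point per gene, an orange bar at each median and the number tested in brackets. The medians of the lists lie between -0.11 and 0.38, the members reach -1.05 at *Tardbp*, and the lowest point of the hnRNP list is *Raly* at -1.18.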

How the data were processed

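Single-embryo RNA-seq libraries were analysed for 11 embryos. The authors aligned single-end reads to GRCm38.p6 using STAR (2.6.0c) and estimated gene abundance using RSEM and GENCODE gene models. For every embryo, the deposited file gives expected counts, in which shared reads are split between genes so that values need not be whole. The authors' RSEM step also gave TPM, whose sum is fixed for each embryo, and gene and effective lengths, as deposited. The authors' comparison table, made with DESeq2 (1.22.2), holds mean counts, log2 fold changes with errors, and p-values, and was not used. There were no molecular identifiers, so any error taken from counts leaves out PCR copying.

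After rounding, the expected counts were tested with DESeq2 (1.42.0, in R 4.3.3) with group as a term, and batch as a term that the study's methods do not state. A call required a mean normalised count above 10 and a Benjamini-Hochberg adjusted p under 0.05. The batch coefficient and the interaction came from the same counts. edgeR (4.0.16), limma (3.58.1) on log2(TPM + 1), TMM factors, an effective-length offset, filters, single batches and leaving out each embryo were alternatives. DESeq2 and edgeR were run on simulated counts with known changes, where DESeq2 recovered more changed genes and made more false calls than edgeR and than its threshold allows. Symbols and lengths came from GENCODE vM21 (GRCm38), and 54079 of 54146 genes matched.

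Groups and batches came from the labels. Replicate numbers only name embryos. The labels do not say which embryos were littermates, so p-values measure the spread between these embryos. The members and gene lists were chosen with earlier results of these data known. Besides members and *Tial1*, the genes named were those called in each list, the 2 largest differences per list at a mean count above 100, and the 5 genes most correlated with *Tardbp*. The comparison of effective lengths was chosen after seeing the data and has no test. Also chosen then were *Raly*, *Hnrnpul1*, *Adnp2*, *Pdp1*, *Gm10052*, *Rhbdd3* and the named early embryo and granulosa markers. A further gene of the naming rule is not reported here.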

Additional observations from a re-analysis of the deposited data

Results flagged for a closer look

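Single embryos were compared with the rest of their group for the 7 genes and *Tial1*, over normalised counts, TPM and effective lengths, 48 groups in all, and Dixon's ratio passed its critical value in 1 of them, where chance gives about 1 in 20. The effective length of *Hnrnpa1* was 1707 bases in control replicate 6 and 1563 to 1600 bases in the other 5 controls. Each group pooled both batches, so an embryo that differed from its own batch alone could not be picked out in this way.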

How the results depend on the processing

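*Tardbp* kept its direction and its call between mutants and controls under all 22 alternatives, from -1.23 to -0.90 (log2), and from -1.11 to -0.96 when single embryos were left out. The alternatives reuse the embryos and the contrast by which *Tardbp* was chosen, so this is a description and gives its call no support. The number of genes called between mutants and controls was 151 and became 32 with edgeR, 22 on log2(TPM + 1), 51 with no batch term, 78 in batch 1 alone, 48 in batch 2 alone, and 90 to 265 with single embryos left out (265 without control replicate 2, 90 without mutant replicate 2 and 91 without mutant replicate 5). The cause was not tested. Related genes called stayed at 0, except for 0 to 1 with single embryos left out. The interaction gave 4 genes, 0 with edgeR and 0 to 22 with single embryos left out (22 without control replicate 1). The count called between batches, 2911, stayed within 2041 to 3122. With 1 fewer difference allowed, 0 of the 6 promoters matched the probe letters, and with 1 more 4 did, in place of 1.

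Values that changed sign were all of genes not called in that comparison. For mutants against controls these were *Ewsr1* at 0.11 in batch 1 alone, *Hnrnpa1* at -0.18 and *Hnrnpa2b1* at -0.18 in batch 2 alone, and, with single embryos left out, *Hnrnpa1* from -0.02 to 0.12 and *Hnrnpa2b1* from -0.08 to 0.07. For batches they were *Tia1* at -0.04 with an effective-length offset, -0.19 on log2(TPM + 1) and from -0.21 to 0.36 with single embryos left out, and *Hnrnpa2b1* from -0.11 to 0.02 with single embryos left out. The order of levels in controls kept its direction at all 5 steps that passed, from 0.76 to 3.41 (log2) with single controls left out, where the sign-flip test cannot go below 0.0625. *Hnrnpa1* over *Hnrnpa2b1*, which did not pass, ran from 0.00 to 0.08. No paired analysis was possible because replicate numbers were given in accession order and pair no embryos. Depth limits *Taf15* and *Tia1* most.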
